A study of Mus musculus with 8 samples.

Results

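The BCL2 family genes that lie outside the group best known as p53 targets were followed in RNA-seq libraries labelled as mouse liver, with and without tranilast. The 10 genes were Bcl2, Bcl2l1, Mcl1, Bak1, Bid, Bad, Bcl2l11, Bik, Bmf and Bok, which were found by symbol among the 22063 genes of the deposited table. Bax, Bbc3 and Pmaip1, the relatives that p53 induces, were not among them and are given for comparison. The libraries fell into 4 controls and 4 with tranilast, an oral anti-allergic drug. All 8 were labelled wild type, and by the series design both groups ate a diet high in fat and cholesterol (HFHC), which the sample labels do not name. The study's methods describe male C57BL/6J mice given either sodium carboxymethyl cellulose as vehicle or tranilast by gavage late in the feeding period, but not the dose that the sequenced mice received. The labels give no age and do not state that each library came from a separate mouse, so the p-values measure the spread between libraries, which may be technical.

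BCL2 family proteins decide whether the outer membrane of mitochondria is opened, the step that releases cytochrome c and starts the caspases. Pro-survival members (BCL2, BCL-XL from Bcl2l1, MCL1) bind and hold back the effectors BAK and BAX, which form the pores, while the BH3-only proteins (BID, BIM from Bcl2l11, BAD, BIK, BMF) bind the pro-survival members or act on the effectors directly. BOK is an effector-like protein that is kept low by degradation. In liver, hepatocytes depend on BCL-XL and MCL1 for survival, and BID links death receptors to the mitochondria in these cells. Hepatocyte markers were nearly absent from the libraries, as given below, so the values here do not describe hepatocytes. All values here are of transcripts, and much of the family is controlled after transcription.

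The 4 control libraries held between 14585153 and 15618787 counts and the 4 tranilast libraries between 12053036 and 14679386. The labelled tissue was checked with marker genes. The hepatocyte list of 10 genes was nearly absent, so the markers did not bear out the label of liver. Alb, which encodes albumin, had between 0 and 2 counts in the controls and between 0 and 1 with tranilast, and 4 of the 10 genes were at 0 in all libraries. The 13 macrophage markers took between 1.06% and 1.12% of the counts in the controls and between 1.09% and 1.15% with tranilast, with Lyz2 at up to 68975 counts, Csf1r at up to 38395 and Adgre1 at up to 801, but Aif1 at 11 to 25 and Mertk at no more than 1. Single macrophage markers moved with the groups, 4 of 12 tested being higher (Ctsd at a log2 fold change of 0.43) and 6 lower (Fcgr1 at -1.42, Itgam at -0.28). Over all tested genes, 28.2% were higher and 28.8% lower at the same adjusted p under 0.05. The part of these markers in the results was not tested. The Kupffer cell genes Clec4f, Vsig4 and Timd4 were at 0 in every library. Of the marker lists examined, the T cell list of 6 genes was the only one whose summed share did not overlap between the groups, at 2.28e-04% to 2.88e-04% of the counts in the controls and 8.30e-05% to 1.84e-04% with tranilast. Nearly all of it was Lck, with 34 to 44 counts in the controls and 9 to 25 with tranilast, while Cd3e, Cd8a and Trac were at 0 throughout; its part in the results was not tested. In bulk RNA, fewer cells of a type and less RNA per cell cannot be told apart.

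In both arms of the family, members were higher and lower with tranilast. Among the pro-survival genes Bcl2 rose and Mcl1 fell, among the BH3-only genes Bcl2l11 rose and Bid fell, and the effector Bak1 fell. Of the 8 members with enough counts to be tested, 2 were higher, 3 were lower and 3 were not called at an adjusted p under 0.05 (edgeR quasi-likelihood test, Benjamini-Hochberg over 10770 genes). Over all genes tested, 57.0% were called, 28.2% higher and 28.8% lower, so the share of members called lay near that of the genome. The values of the groups did not overlap for 5 of the 8 members and for 49.8% of all genes. The median log2 fold change was -0.00 over the tested members and 0.01 over all tested genes. None of the tested members passed an absolute log2 fold change of 1.5, which 1.11% of all genes did at the same adjusted p, and the values of these 8 members stayed between -0.60 and 0.74 over 18 alternatives. Changes at least as large in size as that of Bcl2l11 were found in 12.1% of all genes, as that of Bak1 in 13.3%, as that of Bcl2 in 17.2%, as that of Bid in 26.4% and as that of Mcl1 in 61.9%.

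The upstream sequences of the members that were called are shown because these are the genes whose transcript levels differed between the groups. RefSeq promoter windows (GRCm38.p6) were found for 9 of the 10 members, Bik being the exception, and each covers the 250 bases before a transcript start, with annotated exon bases removed. The Bak1 window lies wholly within annotated exons and is not shown. Capitals mark the motifs searched on both strands, which were the GC box GGGCGG, the FoxO motif GTAAACA, the E-box CACGTG, the cAMP response element TGACGTCA and the TATA motif TATAAA, none of which contains another.
Bcl2l11 (chr2:128125788-128126037, + strand): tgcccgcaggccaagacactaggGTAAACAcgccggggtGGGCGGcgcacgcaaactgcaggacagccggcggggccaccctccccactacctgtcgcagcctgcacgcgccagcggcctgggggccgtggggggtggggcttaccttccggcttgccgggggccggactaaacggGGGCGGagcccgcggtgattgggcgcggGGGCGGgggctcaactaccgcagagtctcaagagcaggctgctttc
Bcl2 (chr1:106714291-106714540, - strand): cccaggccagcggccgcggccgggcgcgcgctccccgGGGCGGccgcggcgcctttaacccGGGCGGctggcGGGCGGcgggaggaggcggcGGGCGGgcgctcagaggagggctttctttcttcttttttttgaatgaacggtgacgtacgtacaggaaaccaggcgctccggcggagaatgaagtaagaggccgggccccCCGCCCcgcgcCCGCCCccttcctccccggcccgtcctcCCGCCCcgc
Bid (chr6:120916854-120917074, - strand): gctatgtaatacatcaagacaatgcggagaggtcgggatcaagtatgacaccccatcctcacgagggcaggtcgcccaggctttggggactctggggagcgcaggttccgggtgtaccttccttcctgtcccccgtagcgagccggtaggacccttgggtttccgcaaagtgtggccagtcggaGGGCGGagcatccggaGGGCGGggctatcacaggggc
Mcl1 (chr3:95658471-95658720, + strand): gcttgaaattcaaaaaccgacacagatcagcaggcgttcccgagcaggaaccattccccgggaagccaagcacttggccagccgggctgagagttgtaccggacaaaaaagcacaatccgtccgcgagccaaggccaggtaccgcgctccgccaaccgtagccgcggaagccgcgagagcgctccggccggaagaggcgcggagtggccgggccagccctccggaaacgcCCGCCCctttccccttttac
All 4 windows are rich in G and C, at 72.0% for Bcl2l11, 74.8% for Bcl2, 62.4% for the 221 bases of Bid and 64.4% for Mcl1, against a median of 52.4% over 32817 promoter windows. The median and the shares over all windows are of full windows of 250 bases, without removal of exon bases. GC boxes numbered 7 in Bcl2, 3 in Bcl2l11, 2 in Bid and 1 in Mcl1, and 32.7% of all windows hold at least 1. The Bcl2l11 window holds 1 FoxO motif, which 3.16% of all windows have, and the window of a second Bcl2l11 start holds none. The E-box, the cAMP response element and the TATA motif, present in 6.02%, 1.55% and 12.4% of all windows, were not among these letters. These matches describe the sequences only.

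Bcl2 (ENSMUSG00000057329; GENCODE M21 on GRCm38, chromosome 1, 106538178 to 106714274, - strand) encodes the founding pro-survival protein, which sits on mitochondria and the endoplasmic reticulum. Its level in CPM, counts scaled to a common library size with TMM factors, was 21.3, 15.9, 18.8 and 17.0 in control replicates 1 to 4 and 21.7, 26.6, 28.1 and 26.6 in tranilast replicates 1 to 4. The groups did not overlap, but the first replicate of each group lay close together, and the other 3 tranilast libraries stood well above every control. The means were 18.2 ± 2.35 and 25.7 ± 2.81 CPM (SD, n = 4 each). Bcl2 rose by a log2 fold change of 0.50 (SE 0.098, 95% interval 0.29 to 0.70, edgeR adjusted p = 2.96e-04).

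Bcl2l1 (ENSMUSG00000007659; chromosome 2, 152780668 to 152831728, - strand) encodes BCL-XL, the pro-survival protein on which hepatocytes and platelets rely. Its CPM values were 113, 117, 114 and 112 in the controls and 121, 119, 116 and 115 with tranilast. The groups overlapped, with the highest control above the 2 lowest tranilast libraries. The log2 fold change was 0.04 (SE 0.036, 95% interval -0.03 to 0.12, edgeR adjusted p = 0.303). On the deposited FPKM scale the groups did not overlap, and with upper-quartile factors, library size alone or FPKM the gene was called higher, at log2 fold changes from 0.11 to 0.16.

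Mcl1 (ENSMUSG00000038612; chromosome 3, 95658788 to 95663176, + strand) encodes a short-lived pro-survival protein that is turned over by the proteasome within a brief time. Its CPM values were 666, 672, 662 and 673 in the controls and 611, 599, 608 and 589 with tranilast. Every tranilast library lay below every control, and the spread within a group was small, at 668 ± 5.08 CPM against 602 ± 9.80 (SD, n = 4 each). Mcl1 fell by 0.15 on the log2 scale (SE 0.023, 95% interval -0.20 to -0.10, edgeR adjusted p = 2.27e-05). With library size alone in place of TMM the log2 fold change was -0.03 and the call was lost (adjusted p = 0.196, edgeR).

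**Figure D1:**
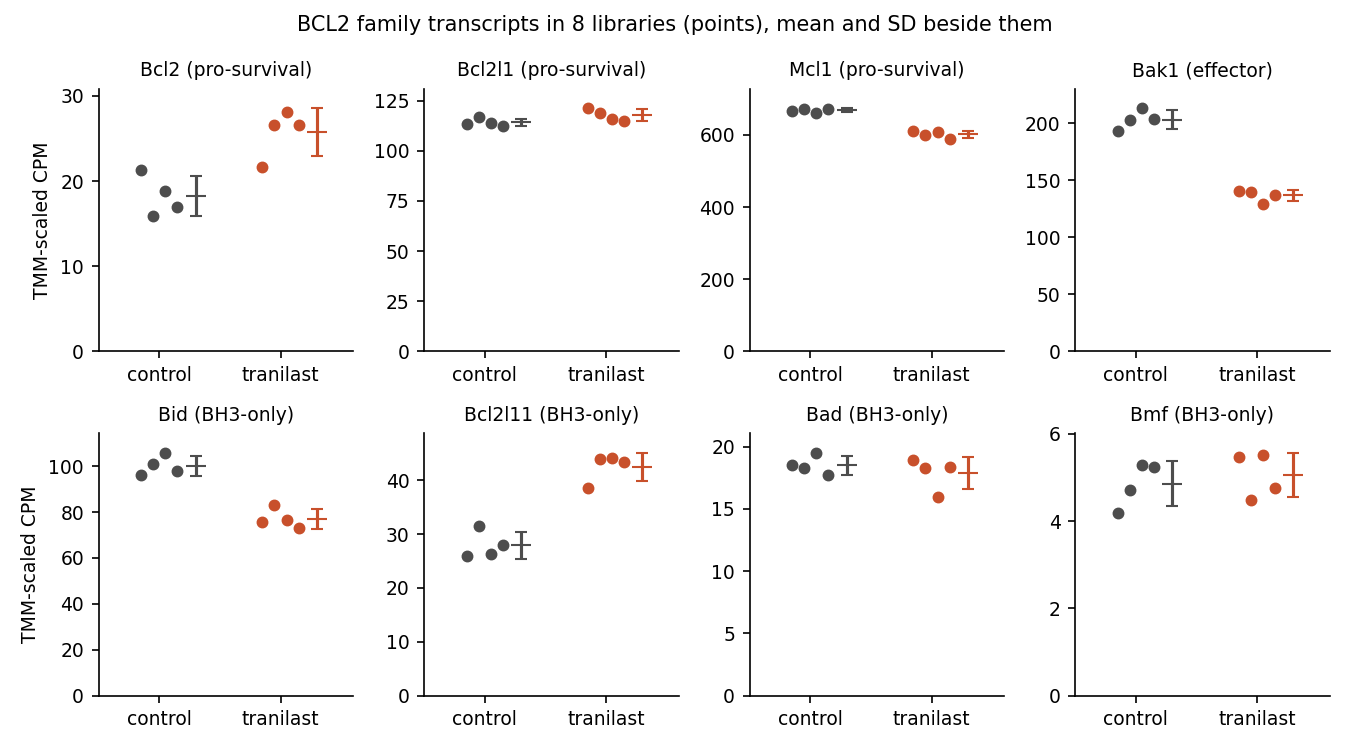
TMM-scaled CPM (linear axis from 0, a separate scale in each panel) of the 8 tested members in the 4 control and the 4 tranilast libraries, drawn as points, with the mean and SD beside them. Bcl2 and Bcl2l11 sit higher and Mcl1, Bak1 and Bid lower with tranilast without overlap, while Bcl2l1, Bad and Bmf overlap.

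Bak1 (ENSMUSG00000057789; chromosome 17, 27019810 to 27029009, - strand) encodes BAK, a pore-forming effector that is anchored in the mitochondrial outer membrane. Its CPM values were 193, 203, 213 and 204 in the controls and 141, 139, 129.6 and 137 with tranilast. The highest tranilast library was far below the lowest control, at means of 137 ± 4.96 and 203 ± 8.13 CPM (SD, n = 4 each). Bak1 fell by 0.57 on the log2 scale (SE 0.038, 95% interval -0.65 to -0.49, edgeR adjusted p = 4.67e-10), and no other member had a smaller adjusted p. Exons of Ggnbp1 overlap Bak1 on the opposite strand, and its 2 entries in the table were at 1.27 CPM or less on average in either group. Bok (ENSMUSG00000026278; chromosome 1, 93685660 to 93695764, + strand), the effector-like member, had 3, 7, 2 and 3 counts in the controls and 4, 3, 1 and 7 with tranilast. These few counts failed the filter on low values, and a difference in Bok was not detectable at this depth.

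Bcl2l11 (ENSMUSG00000027381; chromosome 2, 128126038 to 128162547, + strand) encodes BIM, a BH3-only protein that binds all pro-survival members and is induced when growth factors or cytokines are withdrawn. Its CPM values were 26.0, 31.5, 26.3 and 28.1 in the controls and 38.6, 44.0, 44.1 and 43.3 with tranilast. All tranilast libraries stood above all controls, and tranilast replicate 1 lay apart below the other 3 of its group. The means were 28.0 ± 2.51 and 42.5 ± 2.61 CPM (SD, n = 4 each). Bcl2l11 rose by a log2 fold change of 0.60 (SE 0.069, 95% interval 0.46 to 0.75, edgeR adjusted p = 6.79e-07), the largest in size among the tested members in this fit.

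Bid (ENSMUSG00000004446; chromosome 6, 120891930 to 120916853, - strand) encodes the BH3-only protein that caspase cleavage activates downstream of death receptors. Its CPM values were 96.1, 101, 106 and 97.7 in the controls and 75.8, 83.2, 76.6 and 72.9 with tranilast. The groups were apart, at 100.1 ± 4.32 and 77.1 ± 4.34 CPM (SD, n = 4 each). Bid fell by 0.38 on the log2 scale (SE 0.047, 95% interval -0.48 to -0.28, edgeR adjusted p = 1.92e-06). Bcl2l13, a relative whose exons overlap Bid on the opposite strand, was at 71.2 ± 4.18 CPM in the controls and 68.0 ± 3.48 with tranilast and was not called (log2 fold change -0.07, edgeR adjusted p = 0.273), and the sources used here do not say whether the counting used strand.

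The remaining BH3-only members were not called or not tested. Bad (ENSMUSG00000024959; chromosome 19, 6941861 to 6951899, + strand) encodes a protein that growth factor kinases keep phosphorylated and inactive. Its CPM values were 18.5, 18.3, 19.5 and 17.7 in the controls and 19.0, 18.3, 15.97 and 18.3 with tranilast. Exons of Gpr137, at 10.7 ± 0.672 and 12.3 ± 1.88 CPM and not called, overlap Bad on the opposite strand, and part of the Bad counts were fractional. The groups overlapped, and the log2 fold change of -0.05 (SE 0.081, 95% interval -0.22 to 0.12, edgeR adjusted p = 0.649) was positive with upper-quartile factors, library size alone, FPKM or without tranilast replicate 3. Bmf (ENSMUSG00000040093; chromosome 2, 118528757 to 118549687, - strand), which encodes a protein tethered to the actin cytoskeleton until cells detach or are stressed, lay between 4.20 and 5.28 CPM in the controls and between 4.49 and 5.51 with tranilast. Its log2 fold change was 0.05 (SE 0.15, 95% interval -0.27 to 0.38, edgeR adjusted p = 0.782), and -0.01 without control replicate 1. Bik (ENSMUSG00000016758; chromosome 15, 83526862 to 83544634, + strand), which encodes a BH3-only protein of the endoplasmic reticulum, had 0 counts in 7 libraries and 1 count in tranilast replicate 3. An observed 0 is compatible with as many as 3 counts, or 0.192 to 0.249 CPM at these depths, so no fold is given for Bik.

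By exact permutation of the group labels over log2 CPM (two-sided), Bcl2, Mcl1, Bak1, Bid and Bcl2l11 each had p = 0.0286, the smallest that 4 libraries against 4 allow. This value restates that the groups did not overlap, which held for 49.8% of all tested genes. Bcl2l1 had p = 0.114 by the same exact test, and Bad and Bmf each 0.571. Bcl2, Bak1, Bid and Bcl2l11 kept their direction and their call in all 18 alternatives, with log2 fold changes from 0.43 to 0.61, from -0.60 to -0.45, from -0.41 to -0.26 and from 0.57 to 0.74. In the plot of log2 fold changes under 4 scalings, each of the other 3 gave a higher value than TMM for every tested member. The median of all genes was shifted by 0.12 with library size alone and by 0.11 with FPKM. Of the genes called, 49.5% were higher with TMM, 62.6% with upper-quartile factors, 70.9% with library size alone and 70.4% with FPKM.

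**Figure D2:**
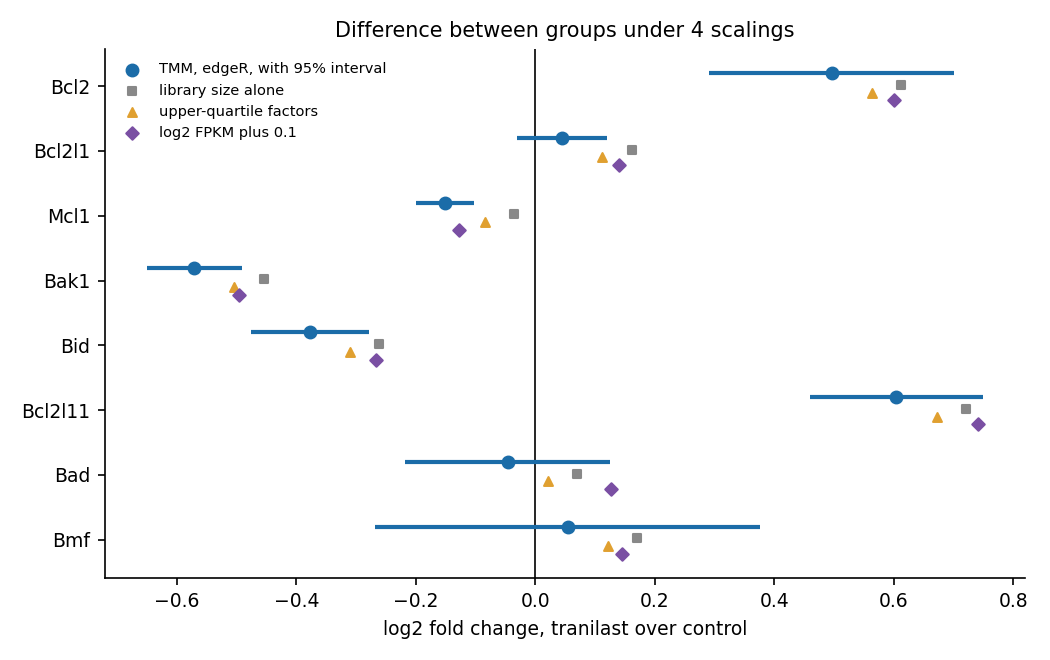
Log2 fold change, tranilast over control, of the 8 tested members. Blue circles with bars are the edgeR estimates with TMM and their 95% intervals, and the other symbols are the estimates with library size alone, upper-quartile factors and log2 FPKM plus 0.1. Bcl2 and Bcl2l11 lie to the right of 0 and Bak1, Bid and Mcl1 to the left under each scaling drawn, while Bad lies on either side.

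The levels of different members can be set side by side on the FPKM scale, which is per length. The order was the same in both groups, from Mcl1 through Bak1, Bcl2l1, Bid, Bad, Bcl2l11, Bcl2, Bmf and Bok to Bik. Neighbours in this order did not overlap over the 4 libraries of a group, except Bok and Bik with tranilast. Mcl1 was at 230.4 ± 11.1 FPKM in the controls and 211 ± 12.6 with tranilast and ranked 272 among all genes of the table. Bak1 followed at 115 ± 4.48 and 81.6 ± 2.48 FPKM and Bcl2l1 at 49.8 ± 0.965 and 54.9 ± 3.08. Both members that rose were among the low ones, with Bcl2l11 at 6.12 ± 0.474 and 10.3 ± 0.828 FPKM and Bcl2 at 2.45 ± 0.340 and 3.76 ± 0.426 (SD, n = 4 each).

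Summed over the 10 members only, without the p53-induced relatives, the FPKM of the 3 pro-survival genes lay between 274 and 298 in the controls and between 248 and 282 with tranilast, so the groups overlapped. The sum of the 7 pro-death genes lay between 178 and 191 in the controls and between 145 and 159 with tranilast, without overlap. The ratio of the sums was 1.54, 1.49, 1.56 and 1.49 in the controls and 1.87, 1.69, 1.93 and 1.67 with tranilast. Every tranilast library had a higher ratio than every control, at means of 1.79 ± 0.129 and 1.52 ± 0.0348 (SD, n = 4 each). The direction of this ratio depended on which genes were summed, and Bak1 made up 62.0% of the pro-death FPKM in the controls and 54.1% with tranilast. With Bak1 left out, an alternative chosen after the data were seen, the ratio was 4.01 ± 0.119 in the controls and 3.91 ± 0.318 with tranilast, and the groups overlapped. With Bax, Bbc3 and Pmaip1 added to the pro-death side, also chosen after the data were seen, the ratio was 0.870 ± 0.0265 in the controls and 0.789 ± 0.0591 with tranilast, the opposite direction, again with overlapping groups. Mcl1 supplied 81.5% of the pro-survival FPKM in the controls and 78.2% with tranilast, and Bcl2l1 17.6% and 20.4%. The share of Bcl2l11 in the pro-death FPKM was 3.29% ± 0.231 in the controls and 6.83% ± 0.569 with tranilast.

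**Figure D3:**
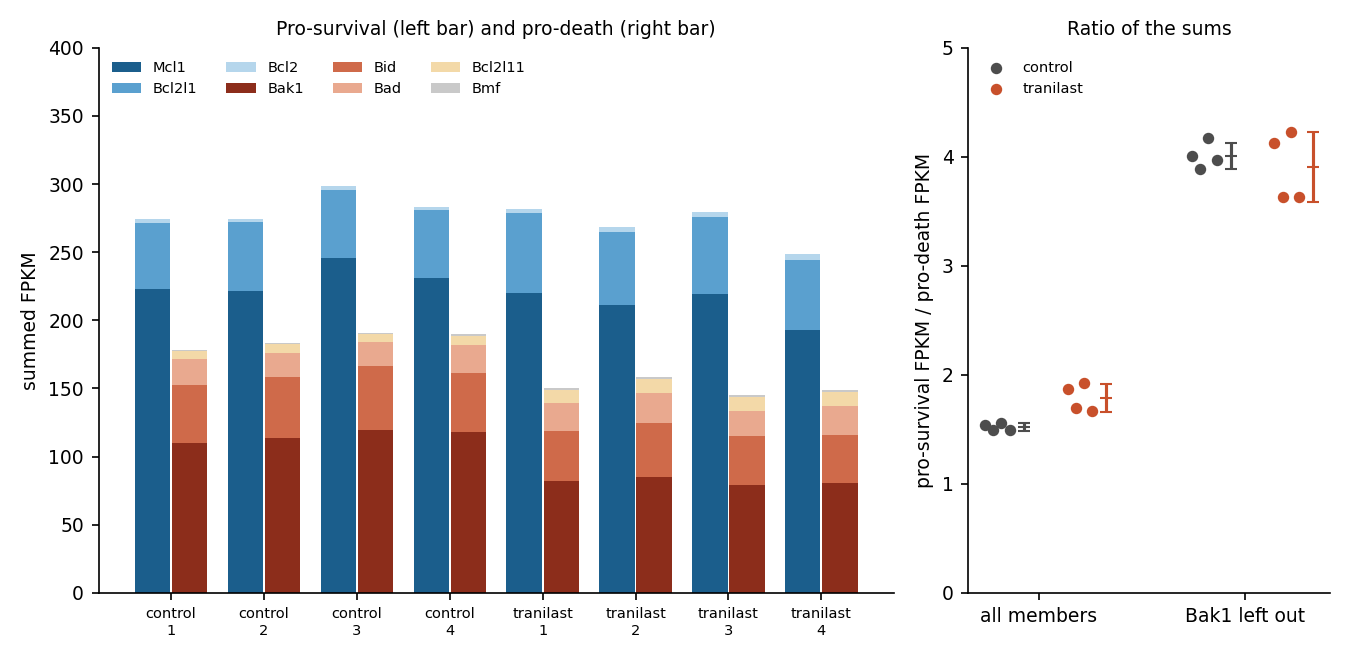
Left, summed FPKM of the pro-survival members (blue, left bar) and of the pro-death members (red to yellow, right bar) in each library, stacked by gene; Bok and Bik are too low to draw. Right, the ratio of the 2 sums in each library with the mean and SD, for all members (1.49 to 1.56 in the controls, 1.67 to 1.93 with tranilast) and with Bak1 left out (3.89 to 4.17 and 3.63 to 4.23).

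Ratios between single partners within a library do not depend on how libraries are scaled for depth. As ratios of FPKM they still depend on how FPKM accounts for gene length. The ratios differed in direction. MCL1 holds BIM, and the ratio of Mcl1 to Bcl2l11 was 40.2, 33.8, 41.7 and 35.7 in the controls and 24.3, 19.4, 20.5 and 18.3 with tranilast. All tranilast libraries were below all controls. The ratio of Bcl2 to Bcl2l11, both of which rose, was 0.406 ± 0.0886 in the controls and 0.365 ± 0.0149 with tranilast, and the groups overlapped. The ratio of Bcl2l1 to Bak1 was 0.432 ± 0.0141 in the controls and 0.673 ± 0.0463 with tranilast (SD, n = 4 each), and that of Mcl1 to Bak1 was between 1.95 and 2.06 and between 2.39 and 2.77. Between the effectors, the ratio of Bax to Bak1 was between 0.972 and 1.097 in the controls and between 1.69 and 1.85 with tranilast, without overlap. These ratios are given as descriptions, with no test.

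**Figure D4:**
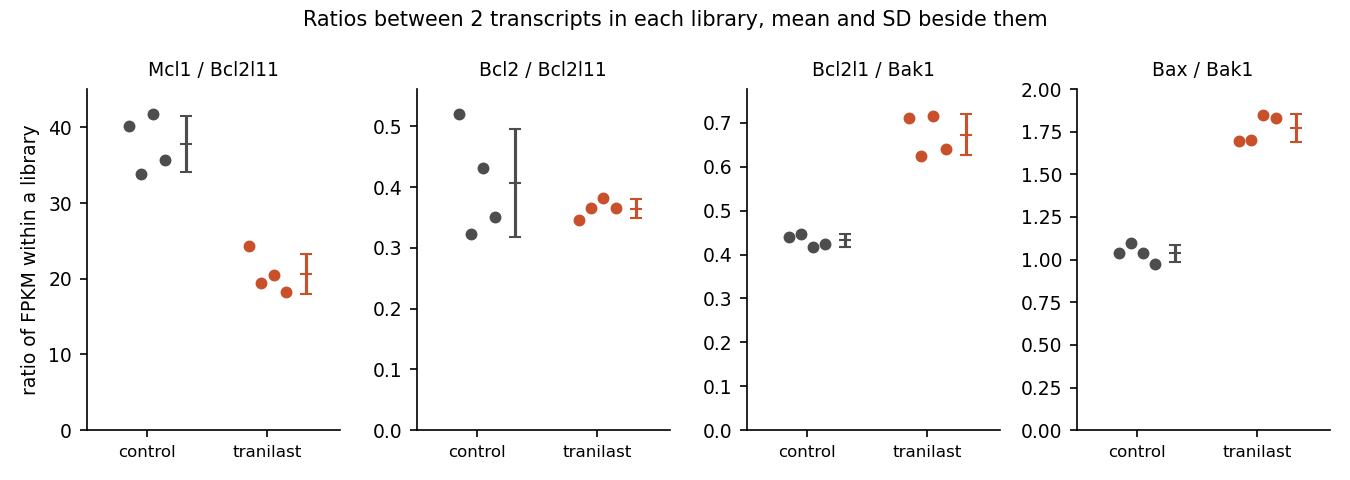
Ratio of the FPKM of 2 transcripts in each library (points, linear axes from 0), with the mean and SD beside them, in the control and the tranilast libraries. Mcl1 over Bcl2l11 is lower and Bcl2l1 over Bak1 and Bax over Bak1 are higher with tranilast without overlap, while Bcl2 over Bcl2l11 overlaps.

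All 3 p53-induced relatives rose, where 28.2% of all tested genes were called higher. Bax, the effector that moves to mitochondria from the cytosol, rose by a log2 fold change of 0.17 (SE 0.041, edgeR adjusted p = 0.00199), Pmaip1, which encodes NOXA, by 0.72 (SE 0.056, adjusted p = 4.37e-09) and Bbc3, which encodes PUMA, by 1.72 (SE 0.081, adjusted p = 4.42e-12). Of the 5 other multi-domain relatives that could be tested, 1 was higher and 3 were lower. Over all tested genes 57.0% were called, 28.2% higher and 28.8% lower. Bcl2l2, which encodes the pro-survival protein BCL-W, was at 17.9 ± 0.917 and 20.7 ± 0.943 CPM and was called higher (log2 fold change 0.21, edgeR adjusted p = 0.0288), a call that was lost in 5 of the alternatives, DESeq2 among them. Bcl2a1d was lower by 0.43 on the log2 scale, and Bcl2a1b, lower by 0.18, lost its call in 12 alternatives. The Bcl2a1 genes are near-identical copies whose reads may be split between them, so their values are uncertain. Among 7 tested BH3 proteins outside the members and the p53 group, Bnip3, a mitochondrial protein of hypoxia and mitophagy, fell by 0.98 on the log2 scale from 384 ± 18.8 to 195 ± 9.14 CPM, and Bcl2l12, counted in both lists, fell by 0.55. Bnip1, Bnip2, Bnip3l, Becn1 and Moap1 were not called. Becn1, an autophagy protein with a BH3 motif, was at a log2 fold change of 0.03 in this fit and was called higher with upper-quartile factors, library size alone and FPKM, at 0.10 to 0.25. Bnip2 was called lower without control replicate 1, at -0.10. Bcl2a1a, Bcl2a1c, Bcl2l14, Bcl2l15 and Hrk had too few counts to be tested, and Bcl2l10 had none.

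Of 112 related genes that were not members, 101 were tested, 29 were higher and 35 lower, with a median log2 fold change of -0.00, and the groups did not overlap for 59. These counts lay near the shares over all tested genes, of which 57.0% were called, 28.2% higher and 28.8% lower, and 49.8% had groups without overlap. Downstream of the mitochondria, 5 of 14 apoptosome and caspase genes were higher and 3 lower, with the executioner Casp6 at 0.43, Diablo, whose product blocks inhibitor of apoptosis proteins, at 0.32, Aifm1 at -0.23 and Cycs, which encodes cytochrome c, at -0.15. Of 8 tested inhibitor of apoptosis genes, 3 were higher, all of them of the neighbouring Naip copies, which encode inflammasome sensors (Naip5 at 0.65, Naip2 at 0.48), and 2 were lower, Birc5, which encodes the mitotic protein survivin, at -1.07 and Birc3 at -0.21. Part of the Naip counts were fractional, so reads may be split between these copies and their values may not be independent. In the death receptor list, which feeds into BID, 3 of 10 were higher, 1 was lower and 6 were not called. Casp8, which is in the caspase list, was lower at -0.14. Tnfrsf10b, the TRAIL receptor, was at 1.46, Fas at 0.72 and the adaptor kinase Ripk1 at 0.50, against -0.18 for Tnfrsf1a. Fas and Tnfrsf10b are p53 targets as well.

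Among the genes whose products act on the members, 13 of 18 regulators of BAD were lower and 3 higher, with a median log2 fold change of -0.20, beside 28.8% lower and a median of 0.01 over all tested genes. All 6 tested Ywha genes, whose products sequester phosphorylated BAD, were lower, from -0.18 for Ywhab, whose call was lost with library size alone and with FPKM, to -0.50 for Ywhah, with Ywhaz at -0.42, while their relative Sfn was higher at 0.90 on a low level of 1.11 ± 0.210 and 2.08 ± 0.352 CPM. Pim1, a kinase that phosphorylates BAD, was higher at 0.43. Of 11 regulators of BIM, BMF and BOK, 7 were higher and 2 lower, with a median of 0.28, beside 28.2% higher over all tested genes. These included the transcription factors that act on Bcl2l11, Ddit3 (CHOP) at 1.34, Foxo4 at 0.62, Foxo1 at 0.55, Foxo3 at 0.48 and Cebpa at 0.33, while Dynll1, the dynein light chain that binds BIM, was at -0.25 and Mapk3, the kinase ERK1 that marks BIM for degradation, at -0.20. Of 10 tested regulators of MCL1, 2 were higher (Btrc at 0.33, Dusp6 at 0.16) and 3 lower (Gsk3a at -0.25, Ddb1 at -0.22 and Huwe1, a ubiquitin ligase for MCL1, at -0.14). Of 16 mitochondrial partners, 2 were higher (Ghitm at 0.43, Itpr2 at 0.30) and 7 lower, led by Vdac1 at -0.43, a channel of the outer membrane, and Itpr1 at -0.37. Values in this and the preceding paragraph are log2 fold changes of the edgeR fit with an adjusted p under 0.05. With library size alone in place of TMM, 48 related genes were higher and 21 lower, and Cycs, Birc3, Tnfrsf1a, Mapk3 and Huwe1 were among those no longer called; with FPKM, Aifm1 and Itpr2 also lost their calls.

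**Figure D5:**
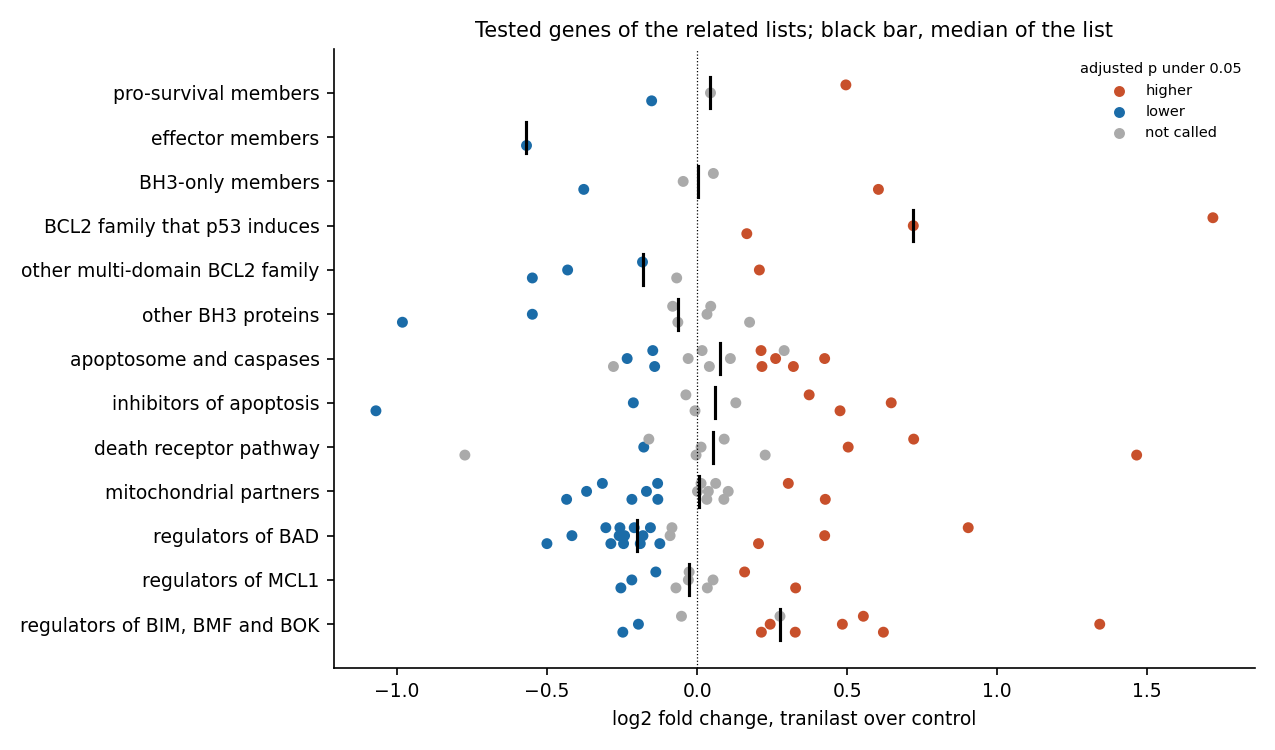
Log2 fold change, tranilast over control, of each tested gene in the member groups and in 10 related lists (1 point a gene), coloured by call at an adjusted p under 0.05, with a black bar at the median of each list. The median of the p53-induced relatives is 0.72, that of the regulators of BIM, BMF and BOK 0.28 and that of the regulators of BAD -0.20.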

How the data were processed

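RNA was measured in 8 libraries, 4 control and 4 tranilast, by poly-A enriched paired-end sequencing. The authors deposited, for each gene, an estimated count of reads, whole for between 92.7% and 93.9% of the genes in a library, and an FPKM value, scaled for transcript length and depth. The aligner, the counting tool, the genome build and the use of strand are not given in the sources used here, and the methods and the labels name different instruments. Groups were taken from the sample titles. The members and gene lists were chosen with earlier results of these data known.

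Estimated counts were rounded, genes were kept by filterByExpr, TMM factors were computed, and tranilast was set against control with the quasi-likelihood test of edgeR 4.0.16 (R 4.3.3) without covariates, with Benjamini-Hochberg adjustment over 10770 genes. A call is an adjusted p under 0.05. CPM values are TMM-scaled, and 0.1 was added before the log2 for the exact permutation tests. Totals of 12053036 to 15618787 counts set the precision, which for a count of 0 covers counting error only. Coordinates are from GENCODE M21 on GRCm38, 1-based, matched by identifier. Promoter windows are from RefSeq (GRCm38.p6), and protein sequences were not used here. All members were named, as were all BCL2 relatives with a count and, of each other list, the called genes with the 2 highest and the 2 lowest log2 fold changes. Huwe1, Cebpa, Foxo1, Foxo3 and Ywhab lie outside this rule and were named after their values were seen. Casp8 was named later still and is not among the 55 named genes followed under the alternatives. March5 was not found under that symbol, and of 2 entries for Ddit3 the one with more counts was used. Alternatives were RLE and upper-quartile factors, library size alone, DESeq2 1.42.0, limma-voom and limma trend on log2 FPKM plus 1 or 0.1 (limma 3.58.1), no filter on low counts, at least 10 counts in every library, 2 fold thresholds, the replicate number as a block, and each library left out. The sum ratio was also taken without Mcl1 or Bid and, after the data were seen, without Bak1 or with Bax, Bbc3 and Pmaip1 added. Aif1, Mertk, Ctsd, Fcgr1 and Itgam were named among the markers after their values were seen. The code was tested on simulated data in which few genes were changed, as many up as down. That setting does not test the choice of scaling. The study's methods name limma with a fold threshold of 1.5 on the log2 scale. The raw reads were not analysed here.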

Additional observations from a re-analysis of the deposited data

Results flagged for a closer look

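For the tested members, the named related genes and the ratio of summed FPKM, 112 groups of 4 libraries were examined. Of these, 5 had a library whose gap to the nearest other was large against the range of its group by Dixon's criterion. Chance alone marks about 1 in 20 groups. Bcl2l11 was at 38.6 CPM in tranilast replicate 1, below the 43.3 to 44.1 CPM of the other tranilast libraries and above every control. Fas was at 6.23 CPM in tranilast replicate 3 against 4.85 to 5.04 in the others. Btrc was at 12.1 CPM in control replicate 4 against 14.2 to 14.3 in the others. Ddb1 was at 477 CPM in tranilast replicate 3 against 496 to 499 in the others. Huwe1 was at 779 CPM in tranilast replicate 4 against 829.9 to 838 in the others. Leaving out 1 library at a time, the log2 fold change of Bcl2l11 ranged from 0.57 to 0.66, and the calls of all 5 genes were kept.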

How the results depend on the processing

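The member counts, 2 higher and 3 lower, became 3 higher with upper-quartile factors, library size alone or FPKM (Bcl2l1 added) and 2 lower with library size alone (Mcl1 lost). With a log2 fold change of 1.5 or more in size they were 0 and 0, and with a fold of at least 1.5 they were 1 and 0. The related genes called higher, 29, were 48 with library size alone and 1 and 8 with the 2 fold thresholds, and those called lower, 35, were 21 with library size alone, 20 with either FPKM fit, and 0 and 2 with the thresholds. Leaving out 1 library gave 2 and 3 members and between 28 and 31 higher and between 31 and 36 lower related genes. The ratio of pro-survival to pro-death FPKM, tranilast over control, was 1.38 without Mcl1, 0.974 without Bak1 and 0.908 with the p53-induced relatives added, and from 1.15 to 1.20 with 1 library left out. The sign of genes that were not called turned for Bad (0.021 with upper-quartile factors, 0.070 with library size, 0.12 and 0.13 with FPKM, leave-one-out range -0.072 to 0.0041), Bmf (leave-one-out -0.011 to 0.11), Bnip3l (0.0034, 0.053, 0.053 and 0.054 in the order given for Bad), Bcl2l13 (0.049) and Bnip2 (0.035) with library size, Bnip1 (leave-one-out -0.016 to 0.11) and Moap1 (leave-one-out -0.11 to 0.58), and the cause was not tested. Of the single-gene alternatives, 922 kept direction and call, 44 lost the call, 9 gained it and 15 turned sign. Same-numbered libraries deviated together at correlations from -0.12 to 0.13 and share only a number; the replicate block left 2 and 3 members and 29 and 34 related genes called, changed the call of 1 of 55 named genes (Bcl2a1b, log2 fold change -0.18, edgeR adjusted p = 0.0602), and gave 6009 calls over all genes against 6143. Depth limits Bok, at 1 to 7 counts, and Bik, at 0 or 1.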
